A study of Mus musculus with 8 samples.

Results

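The glucocorticoid receptor gene Nr3c1 and 6 of its known target genes, Fkbp5, Tsc22d3, Sgk1, Ddit4, Cxcr4 and Klf9, were examined in mouse splenocytes. They were chosen by name, through the Ensembl identifiers that GENCODE M21 gives for these symbols, and make up 7 of the 51826 genes in the count table. All 7 were among the 16484 genes with enough counts to be tested.

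The transcripts of total splenocytes were sequenced in 8 female BALB/c mice, 4 that received tRA (all-trans-retinoic acid, the active metabolite of vitamin A) and 4 control mice that received vehicle. The tRA mice were dosed orally each day with 1 mg/kg body weight, starting at weaning and ending when spleens were taken at 3 months of age, and neither group was given pristane, the oil used elsewhere in the study to induce lupus. The comparison asks which transcripts differ after tRA alone, before any disease is induced. Total counts on genes were between 30919272 and 37539631 per control mouse and between 31810417 and 35165876 per tRA mouse. The vehicle of the control mice was canola oil in the methods, whereas the treatment text of the labels describes tRA dosing for all 8 samples. The groups were taken from the sample titles. No 2 libraries of a group were duplicates, since a chi-square comparison of their counts gave 12.9 to 65.4 per degree of freedom, above counting noise. The labels only number the samples and the paper speaks of 4 mice per group, so p-values measure the spread between these 8 samples.

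The cells carried the markers of a spleen. Of the B cell markers, Ighd was between 1273 and 1694 CPM (counts scaled to a common library size after TMM normalization) and Cd79a between 1179 and 1540 CPM over the 8 mice. The 6 T cell genes (Cd3d, Cd3e, Cd3g, Cd4, Cd8a and Trac) summed to between 963 and 1195 CPM.

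Corticosterone, the main glucocorticoid of mice, enters cells and binds the receptor encoded by Nr3c1, which Hsp90 and its cochaperones hold ready in the cytosol. The bound receptor moves to the nucleus, attaches to glucocorticoid response elements in DNA, and activates or represses nearby genes. In lymphoid tissue the hormone is known for restraining inflammation, killing immature lymphocytes and redistributing lymphocytes between blood, marrow and spleen, and its level follows the time of day and stress.

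None of the receptor and target genes passed the test between tRA and control mice. With the quasi-likelihood test of edgeR, and p-values adjusted over all genes by the Benjamini-Hochberg method (FDR), 0 of the 7 had an FDR under 0.1, and the share over all genes tested was also 0%. At an unadjusted p under 0.05 there were 0 of the 7, against 1070 genes or 6.49% of all tested. DESeq2 and limma-voom also called 0 of the 7, while they called 27 and 1 of all genes. The 4 tRA mice and the 4 control mice overlapped in level for every one of the 7 genes. Of all genes tested 584, or 3.54%, did not overlap, and at so small a share 0 of 7 does not set these genes apart. The genes differed from each other in how far single mice spread, and for Cxcr4 and Tsc22d3 the mice farthest from the control mean were tRA mice 3 and 4. These 2 libraries stood apart in immediate early genes (described further on), so each fold change is also given without them, a setting chosen after seeing the data. In bulk RNA of this kind, fewer cells of a type and less RNA per cell cannot be told apart.

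**Figure D1:**
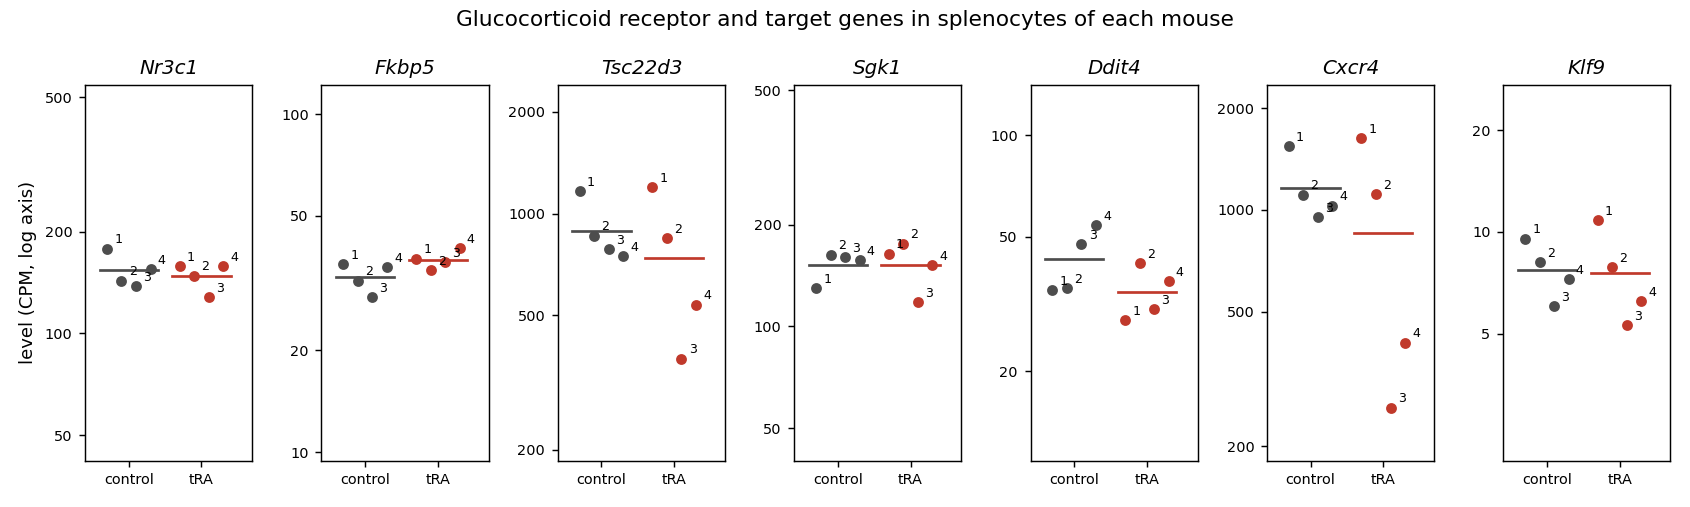
Level of each gene in CPM (log axis, spanning the same ratio in every panel) in 4 control mice (grey) and 4 tRA mice (red), with the replicate number beside each point and the group mean as a line. Cxcr4 and Tsc22d3 have their 2 lowest points in tRA mice 3 and 4, and the groups overlap in all 7 panels.

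Nr3c1, the receptor itself, is encoded on the minus strand of chromosome 18 (39410545 to 39519421, GRCm38). Its level was 178, 143, 138 and 155 CPM in control mice 1 to 4 and 158, 148, 128 and 158 CPM in tRA mice 1 to 4. The highest mouse was a control and the lowest a tRA mouse, and the other 6 lay between them with the groups mixed. Group means were 154 ± 17.7 CPM in control mice and 148 ± 14.1 CPM in tRA mice (SD, n = 4 each). The log2 fold change, tRA over control, was -0.051 with a standard error of 0.0954 and a 95% interval from -0.26 to 0.16 (edgeR, FDR = 0.925). Its sign turned without control mouse 1 (0.027) and without tRA mouse 3 (0.011), and without tRA mice 3 and 4 it was -0.0064.

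Fkbp5 encodes FKBP51, an Hsp90 cochaperone that lowers the receptor's affinity for hormone and is itself strongly induced by the receptor, which makes it a feedback gene and a common readout of glucocorticoid action. The gene lies on the minus strand of chromosome 17 (28399094 to 28517527). Control mice 1 to 4 had 36.0, 32.2, 28.7 and 35.3 CPM, and tRA mice 1 to 4 had 37.4, 34.6, 36.5 and 40.1 CPM. The 3 highest mice were tRA mice 4, 1 and 3 and the lowest were control mice 3 and 2, but tRA mouse 2 lay below control mice 1 and 4. It had the largest positive fold change of the 7 genes, 0.17 on the log2 scale with a standard error of 0.0874 and an interval from -0.023 to 0.36 (edgeR, FDR = 0.780). The value was 0.12 without tRA mice 3 and 4. Over the mice left out in turn it was lowest without control mouse 3, at 0.10, which is more than 1.5 times smaller. Genes that lie within Fkbp5 in GENCODE M21 share none of its exons, and Gm22146, the one with counts in the table, had at most 3 per mouse.

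Tsc22d3 encodes GILZ, a leucine zipper protein that is induced by glucocorticoids in lymphocytes and inhibits NF-kB and AP-1. It lies on the minus strand of chromosome X (140539528 to 140600659). Its level was 1162, 860, 783 and 749 CPM in control mice 1 to 4 and 1198, 846, 372 and 537 CPM in tRA mice 1 to 4. The 2 lowest mice were tRA mice 3 and 4, while tRA mouse 1 was the highest of all 8 and tRA mouse 2 fell among the controls. The tRA mice had a mean of 738 ± 364 CPM against 889 ± 188 CPM in control mice (SD, n = 4 each). The log2 fold change was -0.27 with a standard error of 0.300 and an interval from -0.93 to 0.39 (edgeR, FDR = 0.872). It was -0.60 without tRA mouse 1 and -0.048 without tRA mouse 3. Without tRA mice 3 and 4 its sign turned, at 0.20.

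Sgk1 encodes a serine/threonine kinase related to AKT that glucocorticoids and mineralocorticoids induce and that acts on ion transport and cell survival. It lies on the plus strand of chromosome 10 (21882184 to 21999903). Control mice 1 to 4 had 130, 163, 160 and 157 CPM, and tRA mice 1 to 4 had 164, 176, 118 and 152 CPM. The 2 highest mice and the lowest mouse all belonged to the tRA group, and control mouse 1 was the second lowest. The fold change was the smallest in size of the 7, 0.0027 on the log2 scale with a standard error of 0.119 and an interval from -0.26 to 0.27 (edgeR, FDR = 0.997). It was 0.16 without tRA mice 3 and 4, and its sign turned under several alternatives, limma-voom among them (-0.0072), and without control mouse 1 (-0.067), tRA mouse 1 (-0.035) or tRA mouse 2 (-0.076).

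Ddit4 encodes REDD1, which inhibits mTORC1 and is induced by glucocorticoids, hypoxia and other stress. It lies on the minus strand of chromosome 10 (59949669 to 59951834). Its level was 34.8, 35.2, 47.6 and 54.1 CPM in control mice 1 to 4 and 28.3, 41.8, 30.5 and 36.9 CPM in tRA mice 1 to 4. The 2 highest mice were control mice 4 and 3 and the 2 lowest were tRA mice 1 and 3, with the remaining mice of both groups in between. Here tRA mouse 1 was the lowest mouse, whereas for Cxcr4, Tsc22d3 and Klf9 it was the highest. The log2 fold change was -0.32 with a standard error of 0.164 and an interval from -0.68 to 0.041 (edgeR, FDR = 0.778). It was -0.29 without tRA mice 3 and 4, and -0.19, more than 1.5 times smaller, without control mouse 4.

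Cxcr4 encodes the receptor for the chemokine CXCL12, which guides lymphocytes and neutrophils to the bone marrow and to zones of the spleen, and glucocorticoids raise its transcript in T cells. It lies on the minus strand of chromosome 1 (128588199 to 128592293). Control mice 1 to 4 had 1540, 1108, 952 and 1029 CPM, and tRA mice 1 to 4 had 1629, 1111, 260 and 404 CPM. As for Tsc22d3, tRA mouse 1 was the highest and tRA mice 3 and 4 were the lowest, each below every control mouse. The tRA mean was 851 ± 638 CPM and the control mean 1157 ± 263 CPM (SD, n = 4 each), so the tRA mice were the more scattered. The log2 fold change was the most negative of the 7, -0.44 with a standard error of 0.463 and an interval from -1.47 to 0.58 (edgeR, FDR = 0.864). By limma-voom, which averages on the log scale, it was -0.78. It was -0.97 without tRA mouse 1 and -0.14 without tRA mouse 3, and without tRA mice 3 and 4 its sign turned, at 0.24.

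Klf9 encodes a Krüppel-like transcription factor that the receptor induces quickly in many tissues. It lies on the plus strand of chromosome 19 (23141226 to 23168134) and was the least abundant of the 7, with 195 to 355 counts per mouse. Control mice 1 to 4 had 9.53, 8.12, 6.01 and 7.24 CPM, and tRA mice 1 to 4 had 10.8, 7.87, 5.29 and 6.23 CPM. The highest mouse was again tRA mouse 1 and the lowest tRA mouse 3, and the groups were interleaved along the range. The log2 fold change was -0.033 with a standard error of 0.221 and an interval from -0.52 to 0.46 (edgeR, FDR = 0.983). Its sign turned without control mouse 1 (0.085), tRA mouse 3 (0.10) or tRA mouse 4 (0.048), and it was 0.27 without tRA mice 3 and 4.

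Exact two-sided permutation tests over the 8 mice on log2 CPM gave p-values from 0.114 for Fkbp5 to 0.971 for Sgk1, where 0.0286 is the smallest that 4 against 4 can give. Of the 7 fold changes, 2 were positive (Fkbp5 and Sgk1) and 5 negative (Nr3c1, Tsc22d3, Ddit4, Cxcr4 and Klf9). Their median log2 fold change was -0.051, beside 0.0014 over all genes tested, of which 50.3% were positive. With 1 mouse left out that median ran from -0.24 (tRA mouse 1) to 0.011 (tRA mouse 3), and it was 0.16 without tRA mice 3 and 4. The intervals were narrow for Nr3c1, Fkbp5 and Sgk1, whose bounds correspond to 0.834 and 1.12-fold, 0.984 and 1.29-fold, and 0.835 and 1.20-fold. For Cxcr4 the bounds were 0.362 and 1.49-fold, so these mice leave a wider range of differences possible.

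Levels of different genes were compared per transcript length, as TPM on the GENCODE M21 exon length. Cxcr4 had a mean of 1666 ± 775 TPM and Tsc22d3 of 565 ± 183 TPM (SD over 8 mice), and Cxcr4 was above Tsc22d3 in 8 of 8 mice. Sgk1 followed with 94.4 ± 10.7 TPM, Ddit4 with 66.8 ± 13.9 TPM and the receptor Nr3c1 with 59.7 ± 6.30 TPM. Ddit4 exceeded Nr3c1 in 6 of 8 mice, so these neighbours in the order were not separated beyond their spread. Fkbp5 had 11.3 ± 1.55 TPM and Klf9 had 4.81 ± 1.10 TPM, and the order was the same in 8 of 8 mice for every other pair of neighbours.

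The genes fell in different places in the distribution of spread between mice. Across the 8 mice the SD of log2 CPM was 0.932 for Cxcr4, and only 0.23% of the 9111 genes with a mean of at least 10 CPM had a larger one. Tsc22d3 had an SD of 0.558 (1.26% larger) and Ddit4 one of 0.314 (5.78% larger). Nr3c1 with 0.144, Fkbp5 with 0.147 and Sgk1 with 0.192 lay nearer to the median of 0.132. Klf9, whose mean was under 10 CPM, had an SD of 0.346. The highest mouse had 6.27 times the Cxcr4 of the lowest and 3.22 times the Tsc22d3, but 1.38 times the Nr3c1, 1.40 times the Fkbp5 and 1.49 times the Sgk1. Within the control group alone, the SD of Cxcr4 was 0.305 and that of Tsc22d3 0.286, against 1.23 and 0.739 in the tRA group.

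For 2 of the 7 genes, Cxcr4 and Tsc22d3, tRA mice 3 and 4 were the 2 lowest of all 8 mice, a pattern singled out after the values were seen and present in 10.4% of all genes tested. On the log2 scale relative to the control mean, Cxcr4 stood at -2.13 in tRA mouse 3 and -1.49 in tRA mouse 4, and Tsc22d3 at -1.23 and -0.70. In the same mice Klf9 stood at -0.52 and -0.29, and Ddit4 at -0.46 and -0.19, although Ddit4 was lowest in tRA mouse 1 (-0.57). Nr3c1 (-0.25 and 0.052) and Sgk1 (-0.36 and -0.00059) were lowest in tRA mouse 3 but not low in tRA mouse 4, and Fkbp5 was at 0.15 and 0.29. Fkbp5 was thus above the control mean in both mice in which Cxcr4 was lowest.

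**Figure D2:**
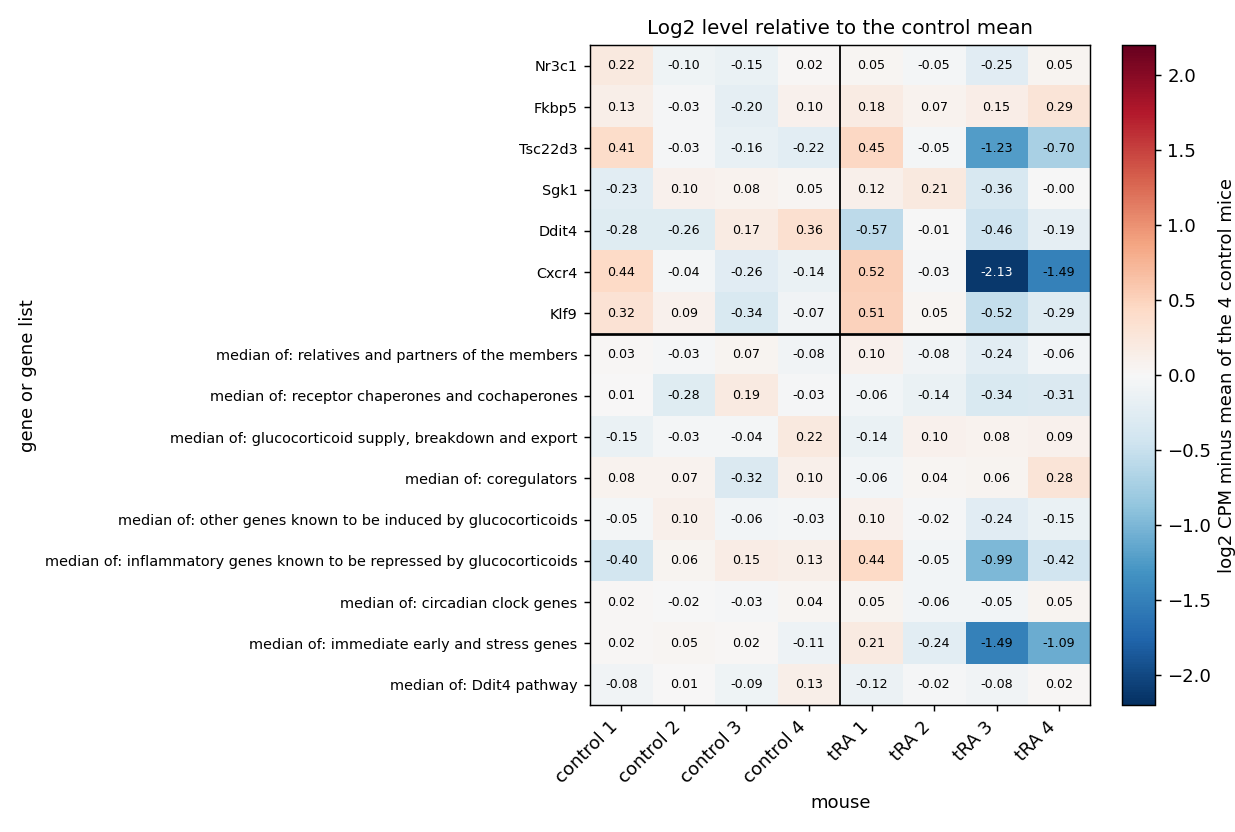
Log2 CPM in each mouse minus the mean of the 4 control mice, for the 7 genes (above the horizontal line) and for the median of each list of related genes (below it), with the value printed in each cell. Cxcr4, Tsc22d3, the immediate early list and, less far, the list of repressed inflammatory genes are below the control mean in tRA mice 3 and 4. Klf9, Ddit4 and the lists of chaperones, other induced genes and relatives are also below it in both mice, by smaller amounts. Sgk1 is below it in tRA mouse 3 (-0.36) and about level with it in tRA mouse 4. Of these 2 mice, Nr3c1 is below it in tRA mouse 3 alone (-0.25), and Fkbp5 is above it in both.

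The genes whose profile over the 8 mice was most like that of each gene were ranked by Pearson r of log2 CPM among 9105 others with a mean of at least 10 CPM. For Cxcr4 they were Cd69 (r = 0.997), Mafk (0.995) and Tgif1 (0.994). Cd69, an early activation antigen of lymphocytes that keeps them in the tissue, had 647, 476, 419 and 421 CPM in control mice 1 to 4 and 773, 507, 96.9 and 142 CPM in tRA mice 1 to 4. Over the 6 mice other than tRA mice 3 and 4, r with Cxcr4 was 0.978 for Cd69, 0.956 for Mafk and 0.953 for Tgif1. For Tsc22d3 they were Klf6 (r = 0.994), Tuba1a (0.991) and Frat2 (0.988), with 0.978, 0.958 and 0.942 over the same 6 mice. For Klf9 they were Erf (0.976), Irf2bp2 (0.972) and Epc2 (0.967). Fkbp5 was most like Cep170b (0.977), Mtmr12 (0.971) and Ppp1r13b (0.968), and Nr3c1 was most like Ino80d (0.966), Avl9 (0.959) and Erbin (0.949). Ddit4 was most like Fcrl5 (0.950), Cops7b (0.912) and Tbc1d8 (0.894). The closest to Sgk1 were Osgin1 (0.937), Pgm1 (0.921) and Zfand5 (0.919). Over the 6 mice without tRA mice 3 and 4, the coefficients of these genes lay between 0.816 (Zfand5 with Sgk1) and 0.990 (Ino80d with Nr3c1). Each is among the highest of 9105 coefficients over 8 mice and describes likeness only.

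Sequences upstream of transcription starts are shown for the 2 genes that were low in the same mice, Cxcr4 and Tsc22d3, and for Sgk1, the gene with the smallest fold change, whose window holds a complete response element. RefSeq windows of GRCm38.p6, running from 250 bases before to 50 after a start, matched 6 of the 7 genes (all but Nr3c1) and gave 13 windows among 32851 in the genome. The receptor binds a palindrome of AGAACA and TGTTCT with 3 bases between them, and both the hexamer (on either strand) and the whole palindrome, which contains 2 hexamers, were searched. A hexamer was in 5 of the 13 windows and in 19% of all windows. Sgk1 and Tsc22d3 had several windows each, for different starts. Most of the 5 were at Sgk1 and the rest at Cxcr4 and Tsc22d3, so the share does not count genes. The complete palindrome was in 1 of the 13, at Sgk1 (chr10:21993701-21993715), and in 3 of all 32851 windows (0.00913%). The retinoid receptor hexamer AGGTCA or its complement TGACCT was in 2 of the 13 windows, both of Sgk1, and in 16.3% of all windows, and the cAMP response element TGACGTCA was in 0 of the 13 and 1.79% of all. The stretches below leave out bases that GENCODE M21 places in an exon, read 5′ to 3′ on the strand of the gene, and have the glucocorticoid hexamers in capitals, together with the 3 bases between the arms of the palindrome of Sgk1.
Cxcr4, chr1:128592300-128592549, minus strand: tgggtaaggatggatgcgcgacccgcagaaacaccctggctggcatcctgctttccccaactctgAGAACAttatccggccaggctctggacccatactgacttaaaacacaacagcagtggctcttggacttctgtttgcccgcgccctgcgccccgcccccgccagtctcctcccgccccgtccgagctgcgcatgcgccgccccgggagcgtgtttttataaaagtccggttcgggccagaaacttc
Tsc22d3, chrX:140600660-140600772, minus strand: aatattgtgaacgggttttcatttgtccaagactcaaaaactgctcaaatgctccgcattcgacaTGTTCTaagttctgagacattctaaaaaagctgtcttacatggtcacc
Sgk1, chr10:21993640-21993889, plus strand: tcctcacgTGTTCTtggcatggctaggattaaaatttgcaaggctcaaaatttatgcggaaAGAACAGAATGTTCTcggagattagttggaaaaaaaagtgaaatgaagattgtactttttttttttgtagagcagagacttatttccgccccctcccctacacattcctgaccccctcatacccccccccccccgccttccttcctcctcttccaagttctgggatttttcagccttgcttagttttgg
The hexamer stood once upstream of Cxcr4 and once upstream of this start of Tsc22d3, and 3 times upstream of this start of Sgk1, counting both arms of the palindrome. The windows of the other Tsc22d3 starts held no hexamer. A match is a description of letters and shows no binding, and no window of Fkbp5, Ddit4 or Klf9 held the hexamer.

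Relatives and partners of the 7 genes were not called either, with 0 of the 12 tested past an FDR under 0.1 by edgeR and 0 at an unadjusted p under 0.05. Nr3c2, the mineralocorticoid receptor, which also binds corticosterone, was at 5.98, 6.16, 6.27 and 5.88 CPM in control mice 1 to 4 and 5.47, 7.49, 5.88 and 6.20 CPM in tRA mice (log2 fold change 0.043). Fkbp4, the cochaperone that opposes FKBP51, had -0.20, and Fkbp1a had -0.057. The Tsc22d3 relatives had -0.21 (Tsc22d1), -0.040 (Tsc22d2) and -0.069 (Tsc22d4), and Sgk3 had -0.0011. Cxcl12, the ligand of CXCR4, lay between 0.704 and 3.53 CPM (log2 fold change 0.065), and Ackr3, its other receptor, had -0.15. Among the Krüppel-like factors, Klf13 had -0.022, Klf4 had -0.60 and Klf2, which keeps naive T cells quiescent, had -0.52. Klf2, Klf4, Tsc22d1 and Ackr3 had their 2 lowest values in tRA mice 3 and 4, as Cxcr4 and Tsc22d3 did, 33.3% of the 12 against 10.4% of all genes. Klf2 was at 417 and 524 CPM there, against 874 CPM in the lowest control mouse. Sgk2 and Ddit4l were too low to be tested, and the median over the 12 was -0.063, which was -0.13 without control mouse 2, -0.12 without tRA mouse 1 and 0.026 without tRA mice 3 and 4.

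Genes that act before and with the receptor were described from fixed lists, and 0 of their genes had an FDR under 0.1 by edgeR, DESeq2 or limma-voom. Of 15 chaperones and cochaperones, Fkbp4 counted again among them, 13 had a negative fold change, with a median of -0.20 against 0.0014 over all genes, and 7 had an unadjusted p under 0.05 (46.7% against 6.49%). That median was -0.096 without control mouse 1 and -0.31 without control mouse 2, and -0.16 without tRA mice 3 and 4. Of the 15, 6 had their 2 lowest values in tRA mice 3 and 4 (Hsp90aa1, Hsp90ab1, Hspa8, Dnaja1, Bag1 and Ppid), 40% against 10.4% of all genes. The most abundant were Hsp90ab1 (-0.39), Hspa8 (-0.34) and Hsp90aa1 (-0.43), all with FDR = 0.757. The heat-inducible Hsph1 had the most negative value, -1.09, and only Dnajb1 (-1.03) had groups that did not overlap, 1 of 15 against 3.54% of all genes, while Ppp5c (0.038) and St13 (0.037) were positive. Of the 6 tested genes in the list for hormone supply and export, which also holds the receptor gene Nr3c2 described above, Cyp11a1 was negative (-0.30) and the other 5 positive, with a median of 0.027 over the list. That median turned negative without control mouse 1 (-0.011), tRA mouse 2 (-0.021), tRA mouse 3 (-0.016) or tRA mice 3 and 4 (-0.020), and was 0.083 without tRA mouse 1 and 0.059 without control mouse 4. The efflux pump genes Abcb1a and Abcb1b had 0.22 and 0.0081. Hsd11b1, which regenerates active hormone, had 0.010, H6pd, which supplies its cofactor, had 0.073, and Cyp11b1, of the last step of corticosterone synthesis, had 0 counts in all 8 mice, and Hsd11b2 was too low to be tested. Of 14 coregulators, 12 had positive values with a median of 0.085 (Ncoa3 0.078, Ncor1 0.11, Ep300 0.10 and, the largest, Med1 0.15), and Trim28 (-0.061) and Hdac2 (-0.052) had negative ones. That median was -0.015 without control mouse 3, -0.0051 without tRA mouse 4 and -0.035 without tRA mice 3 and 4, and neither the supply genes nor the coregulators had an unadjusted p under 0.05. Of the 6 supply genes, 0 had their 2 lowest values in tRA mice 3 and 4. Among the 14 coregulators 1 did (Trim28), 7.14% against 10.4% of all genes.

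Other genes known to be induced by glucocorticoids gave no call among 29 tested (edgeR), with 8 positive and 21 negative fold changes and a median of -0.089. The most abundant were Zfp36 (-0.37), Btg1 (-0.075) and Dusp1 (-0.44). Il7r, the interleukin 7 receptor of T cells, had the largest value, 0.33 with a standard error of 0.124 (FDR = 0.757), and Mt2, a metallothionein below 1 CPM in every mouse, the smallest, -0.84. Only Il7r, Anxa1 (-0.28) and Mt1 (-0.52) had an unadjusted p under 0.05, 10.3% of the 29 against 6.49% of all genes. As with Cxcr4, 13 of the 29 had their 2 lowest values in tRA mice 3 and 4, among them Per1, Dusp1, Nfkbia, Zfp36 and Irs2, which is 44.8% against 10.4% of all genes. Dusp1 had 1394, 1248, 1026 and 1058 CPM in control mice 1 to 4 and 1410, 1058, 399 and 626 CPM in tRA mice 1 to 4, an order much like that of Tsc22d3. The median over the list was 0.00055 without tRA mice 3 and 4, and with 1 mouse left out it ran from -0.21 (tRA mouse 1) to -0.032 (tRA mouse 3). Pdk4 was too low to be tested.

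Inflammatory genes that glucocorticoids repress had 5 positive (Il1b, Ccl2, Cxcl2, Ptgs2 and Csf2) and 8 negative fold changes among 13 tested, with 0 called by edgeR and a median of -0.11. Il1b (0.12), Icam1 (-0.10) and Ccl5 (-0.11) were the most abundant, Csf2 (0.53) had the largest and Il12b (-0.87) the smallest value, and only Il12b and Ifng (-0.55) had an unadjusted p under 0.05, 15.4% of the list against 6.49% of all genes. The median was 0.27 without tRA mice 3 and 4, -0.33 without tRA mouse 1 and -0.069 without tRA mouse 4, and Il6 and Nos2 were too low to be tested. In tRA mice 3 and 4 the list's median stood at -0.99 and -0.42 on the log2 scale relative to the control mean. It was at -0.40 in control mouse 1, about as low as in tRA mouse 4, and at 0.44 in tRA mouse 1. Of the 13 genes, 4 (Ccl3, Ccl4, Cxcl2 and Ifng) had their 2 lowest values in tRA mice 3 and 4, 30.8% against 10.4% of all genes. Of 15 clock genes, whose rhythm glucocorticoids help to set and of which Per1 is also among the induced genes, 6 were positive and 9 negative with 0 called by edgeR, 0 at an unadjusted p under 0.05 and a median of -0.068, which with 1 mouse left out ran from -0.12 (control mouse 1) to -0.022 (tRA mouse 2), and which was 0.0072 without tRA mice 3 and 4. Per1 (-0.26), Bhlhe40 (-0.41) and Tef (-0.13) were the most abundant, Nr1d1 (0.17) had the largest and Ciart (-0.54) the smallest value, and Cry1 (0.16) was the only one whose groups did not overlap, 1 of 15 against 3.54% of all genes. Of these 15, 4 (Per1, Ciart, Bhlhe40 and Bhlhe41) had their 2 lowest values in tRA mice 3 and 4, or 26.7%. In the mTORC1 pathway on which Ddit4 acts, 12 genes, Ddit4 itself and the induced gene Sesn1 counted again among them, had 0 calls, 0 genes at an unadjusted p under 0.05 and a median of -0.049 (from -0.098 without tRA mouse 4 to -0.0045 without control mouse 4). Fold changes ran from Atf4 (-0.34), the most abundant, to Mtor (0.14), with Sesn3 (-0.097) and Sesn1 (0.040) next in level. Of the 12, 2 (Sesn2 and Atf4) had their 2 lowest values in tRA mice 3 and 4, 16.7% against 10.4% of all genes.

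Most immediate early and stress genes were, like Cxcr4 and Tsc22d3, lowest in tRA mice 3 and 4. Their list had 16 negative fold changes of 16, a median of -0.49 and 0 calls by edgeR, while DESeq2 called Jun and Egr1. An unadjusted p under 0.05 was seen for 6 of the 16, 37.5% against 6.49% of all genes. Summed over the 16 genes, of which Fos was the most abundant, the level was 17535, 16165, 17174 and 14287 CPM in control mice 1 to 4 and 15570, 12560, 5785 and 8016 CPM in tRA mice 1 to 4. As for Cxcr4, tRA mice 3 and 4 were the lowest, and 12 of the 16 genes had their 2 lowest values there (all but Fosl2, Egr3, Hspa1a and Hspa1b), 75% against 10.4% of all genes. Among the other 6 mice the median of the list, on the log2 scale relative to the control mean, was highest in tRA mouse 1 (0.21), as Cxcr4 was. The sum was second highest in control mouse 3, the lowest of the 6 for Cxcr4, and Hspa1a and Hspa1b made up 942 and 1842 CPM of it there. Hspa1a (127 CPM) and Hspa1b (276 CPM) were second lowest in tRA mouse 1. Fos (-0.52), Fosb (-0.71) and Jun (-0.58) were the most abundant, Fosl2 (-0.015) had the largest and Hspa1a (-1.35) the smallest value, and Fosb, Jun, Egr1 and Hspa1a had groups that did not overlap, 4 of 16 against 3.54% of all genes. The median of the list was -0.0045 without tRA mice 3 and 4, -0.91 without tRA mouse 1 and -0.29 without tRA mouse 3. By limma-voom it was -0.76. The part of these genes in the levels of Cxcr4 and Tsc22d3 was not tested.

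Markers of cell types were set beside the same mice. Of the 6 T cell markers, 5 had positive fold changes, with 0 at an unadjusted p under 0.05. In tRA mice 3 and 4, in which Cxcr4 and Tsc22d3 were lowest, the summed T cell markers were at 1184 and 1177 CPM, within the range of the controls. Cd3e (216 and 195 CPM) and Cd4 (267 and 288 CPM) were above their control ranges of 145 to 189 and 221 to 261 CPM. Cd8a was above its control range in tRA mouse 3 alone (161 CPM), and Cd3d, Cd3g and Trac were within theirs in both mice. The B cell markers did not go one way there. Ighd was at 1694 and 1608 CPM in these mice, above the control range of 1273 to 1525 CPM, and Cd79a at 1227 and 1179 CPM, below the control range of 1273 to 1540 CPM. Cd79b (770 and 699 CPM), Ms4a1 (626 and 738 CPM) and Pax5 (776 and 845 CPM) were within the range of the controls. Neutrophil precursor markers, of which Ngp was the most abundant, summed to 499, 627, 670 and 569 CPM in control mice 1 to 4 and 225, 277, 308 and 436 CPM in tRA mice 1 to 4, and were lowest in tRA mouse 1, the mouse with the most Cxcr4. All 6 of these markers had negative fold changes, and 5 (Camp, Ngp, Ltf, Elane and Mpo) had an unadjusted p under 0.05, 83.3% against 6.49% of all genes. Camp, Ngp, Ltf and Elane had groups that did not overlap, 4 of 6 against 3.54% of all genes, and the lowest FDR was 0.135 (Camp, edgeR). Camp was called by limma-voom, and Camp, Ltf and Ngp by DESeq2, without the filter on low counts, without tRA mouse 4 and without tRA mice 3 and 4. Mature neutrophil markers summed to 604, 547, 433 and 771 CPM in tRA mice 1 to 4 and to between 513 and 844 CPM in control mice. Of these 5 markers, 2 had positive fold changes (Cxcr2, 0.39, and Csf3r, the most abundant, 0.25) and 3 negative ones, and S100a8 (-0.63) and S100a9 (-0.58) had an unadjusted p under 0.05, with FDR = 0.757 (edgeR) and groups that overlapped. Erythroid markers, led by Hbb-bs, ranged from 450 CPM in control mouse 4 to 3254 CPM in tRA mouse 3 and were at 535 CPM in tRA mouse 4, so they differed widely between the 2 mice low in Cxcr4. Plasma cell markers, of which Jchain was the most abundant, summed to 794, 760, 849 and 963 CPM in control mice 1 to 4 and to 577, 768, 651 and 642 CPM in tRA mice 1 to 4. Of these 5 markers, 3 had negative fold changes, Jchain (-0.46) and Mzb1 (-0.32) had an unadjusted p under 0.05 but FDR = 0.757 (edgeR), and Sdc1 and Mzb1 had groups that did not overlap. NK cell markers summed to between 201 and 339 CPM, monocyte and macrophage markers to between 297 and 491 CPM and dendritic cell markers to between 120 and 208 CPM. Platelet markers stayed between 5.98 and 8.23 CPM and stroma and endothelium markers between 238 and 252 CPM, nearly all of it Pecam1. The part of cell composition in the levels of the 7 genes was not tested.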

How the data were processed

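Total RNA of splenocytes, isolated with lysis of red blood cells, was made into TruSeq v2 libraries and sequenced as paired ends on a HiSeq2500. The authors deposited raw counts per Ensembl gene for each mouse. The paper names Bowtie2 and Tophat2 for alignment and HTSeq for counting, while the submitters' processing notes name STAR 2.5.2b, featureCounts 1.5.1 and DESeq2 1.26.0 with GRCm38, and whether counting used the strand is not given in the sources used here. A second deposited file holds the authors' own DESeq2 comparison and was not used.

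Of the 51826 genes, 51633 matched GENCODE M21 and 193 did not. The test was run with edgeR 4.0.16 under R 4.3.3: filterByExpr with a minimum of 10 counts, TMM, quasi-likelihood test of 4 tRA against 4 control mice without covariates, and FDR under 0.1 over all genes tested. Standard errors are the log2 fold change over the square root of F, and 95% intervals use the t distribution of the fit. The common biological coefficient of variation was 0.152. Log2 CPM used a prior count of 2. The fits were tested on simulated data. Alternatives were DESeq2 1.42.0, limma-voom (limma 3.58.1), RLE, library size alone, no filter, at least 10 counts in every library, a block on the replicate number, robust empirical Bayes, each mouse left out in turn and, chosen after seeing the data, tRA mice 3 and 4 both left out. Python 3.11.15 and matplotlib 3.10.9 drew the figures.

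The 7 genes and the lists were chosen with earlier results of these data known. Named genes are every member, and from each list other than the cell type markers the 3 with the highest mean CPM, those with the largest and the smallest fold change, any called gene, any gene in a count of 5 or fewer, and all tested relatives. Klf6, Cd69 and the others most like a member are the 3 with the highest Pearson r. Any other gene was named with its values already known. A sum over the B cell markers is not reported here.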

Additional observations from a re-analysis of the deposited data

Results flagged for a closer look

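Single mice far from the other 3 of their group were looked for in 134 genes of the 7 members and the lists, in 268 groups. Chance marks about 1 in 20 such groups, or 13.4, and 10 were found, none of them in a member. In control mouse 3, Hsp90aa1 was at 1617 CPM (1079, 1068 and 1122 in the others), Ncoa2 at 72.7, Hif3a at 0.0867, Per2 at 22.5 and Cry2 at 18.2 CPM. In control mouse 1, Cxcl10 was at 1.30 CPM and Icam1 at 80.1 CPM. In tRA mouse 1, Hdac2 was at 104 CPM and Mtor at 61.0 CPM, and in tRA mouse 2 Bcl2l11 was at 63.2 CPM. Cxcr4 and Tsc22d3 were not among these, since their low values in the tRA group are shared by 2 mice.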

How the results depend on the processing

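Under 17 alternatives to the edgeR test of 8 mice, 0 of the 7 members were called in each. Over all genes the count was 27 by DESeq2, 6 without the filter (5830411N06Rik, Camp, Gm10736, Igkv8-19, Ltf and Ngp), 1 by limma-voom (Camp) and 3 without tRA mice 3 and 4 (Camp, Ltf and Ngp; chosen after seeing the data), and 0 under RLE, library size alone, robust empirical Bayes and at least 10 counts. With 1 mouse left out it was 0 to 3, the 3 without tRA mouse 4 (Camp, Ltf and Ngp). Among the genes of the lists other than cell type markers, DESeq2 called 2 (Egr1 and Jun) and the other alternatives 0. Among the cell type markers, a count added after seeing the data, 3 (Camp, Ltf and Ngp) were called by DESeq2, without the filter and without tRA mice 3 and 4, 1 (Camp) by limma-voom, and 0 to 3 with 1 mouse left out. Of 119 member fold changes 106 kept their sign and 13 turned. With 1 mouse left out, log2 fold changes ran from -0.10 to 0.027 for Nr3c1, 0.10 to 0.21 for Fkbp5, -0.60 to -0.048 for Tsc22d3, -0.076 to 0.11 for Sgk1, -0.43 to -0.19 for Ddit4, -0.97 to -0.14 for Cxcr4 and -0.26 to 0.10 for Klf9. Without tRA mice 3 and 4, Tsc22d3 (0.20), Cxcr4 (0.24) and Klf9 (0.27) turned, and Sgk1 turned by limma-voom (-0.0072). The replicate block, with the number of each mouse as a term, called 0 of all genes and turned Sgk1 (-0.0066), and for Cxcr4 it gave -0.78. Deviations of same-numbered mice from their group means were weakly correlated over the genes tested (r = 0.157, -0.0229, -0.014 and 0.259). The most similar tRA mouse had the same number for control mice 1 and 4 but not for control mice 2 and 3. These values cannot decide whether the numbers pair the mice, and the labels do not say. List medians moved by over 1 SD between mice in 3 of 170 cases, the clock genes without tRA mice 3 and 4 (0.0072) and with 1 mouse left out (-0.12 to -0.022), and the other induced genes with 1 left out (-0.21 to -0.032). This SD within groups includes tRA mice 3 and 4, and was 0.55 for the immediate early list and 0.463 for the repressed list. Their medians moved from -0.49 to -0.0045 and from -0.11 to 0.27 without these mice and were not counted. A low count is therefore no measure of stability for such lists. The cause of these shifts was not tested. Klf9 had the fewest counts of the members, 195 in its lowest mouse, where counting error is 0.103 on the log2 scale against an SD of 0.346 between mice.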
